A study of Rattus norvegicus with 4 samples.

Results

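Insulin-like growth factor 1 (IGF-1), platelet-derived growth factors (PDGF), hepatocyte growth factor (HGF) and vascular endothelial growth factor B (VEGF-B), with their receptors, were followed in a rat alveolar macrophage line. The genes were chosen by symbol, by a rule that uses no measured value: Igf1, Pdgfa, Pdgfb, Hgf and Vegfb as ligands, and Igf1r, Igf2r, Pdgfra, Pdgfrb and Met as receptors. All 10 symbols were found on the array under their current names, on 20 of 45598 different probes, and they make up 10 of 18850 named genes. NR8383 is a cell line established by lung lavage of a normal rat, and the cells had gone through 20 passages. They were grown submerged in medium with 15% serum, as a mixture of attached and floating cells, and the 4 samples form 1 group, the submerged control. The labels give both 4 h of submerged incubation and 48 h from seeding, so the values are given without a duration. No second condition was analysed here, so the data describe which of these genes the cells expressed and how far the 4 replicate cultures differed.

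In injured lung, macrophages are a known source of growth factors that act on fibroblasts, epithelium and smooth muscle. IGF-1, the PDGFs and HGF signal through receptor tyrosine kinases (IGF1R, PDGFRA and PDGFRB, and MET) to the PI3K-AKT and RAS-MAPK pathways, while IGF2R clears IGF-2 and carries mannose 6-phosphate-tagged enzymes to lysosomes without a kinase of its own. VEGF-B is a ligand of the VEGF receptor FLT1 and of neuropilin 1.

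Each array reports fluorescence per spot, and a probe was called detected when over 0.5 of its usable spots were well above background on all 4 arrays. Levels are log2 values of the processed signal over the array's 75th percentile, which stood at 1317, 1489, 1179 and 958 units (replicates 1 to 4). The lowest signal well above background lay between 16.7 and 20.3 units, no spot was saturated, and no spot of the 20 probes carried an outlier mark. Of 12 macrophage markers, 11 were detected (54.9% of all named genes were), among them Cd68, Csf1r, Spi1 and Lyz2, and the scavenger receptor Marco was not. Of markers of other cell types, 3 of 10 for fibroblasts, 2 of 9 for smooth muscle and pericytes, 1 of 10 for epithelium and 4 of 8 for endothelium were detected. Those detected were Col1a2, Dcn and Thy1 for fibroblasts, Acta2 and Cspg4 for smooth muscle and pericytes, Ager for epithelium, and Pecam1, Cdh5, Vwf and Eng for endothelium. The fibroblast collagens Col1a1 and Col3a1, the smooth muscle myosin Myh11 and the epithelial adhesion genes Epcam and Cdh1 were detected on no array. The share for endothelium lay near that of all named genes, and what part other cells had in these signals was not tested.

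Of the 10 genes, 6 were detected on all 4 arrays and 4 on none. The detected genes were the ligands Igf1, Pdgfa, Hgf and Vegfb (4 of 5) and the receptors Igf2r and Met (2 of 5). Pdgfb, Igf1r, Pdgfra and Pdgfrb were detected on no array. Among all named genes, 54.9% were detected on all 4 arrays and 37.7% on none, so the share of 6 in 10 lay close to that of the whole array. Detection moved with the number of probes per gene: it was 49.9% of all genes with 1 probe, 64.3% of those with 2 and 71.5% of those with 3 or more. Among the 10 genes it was 1 of 4 with 1 probe, 3 of 4 with 2 probes and 2 of 2 with more. The genes not detected in this set therefore included 3 that rest on a single probe, and possible failure of such probes was not tested.

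**Figure D1:**
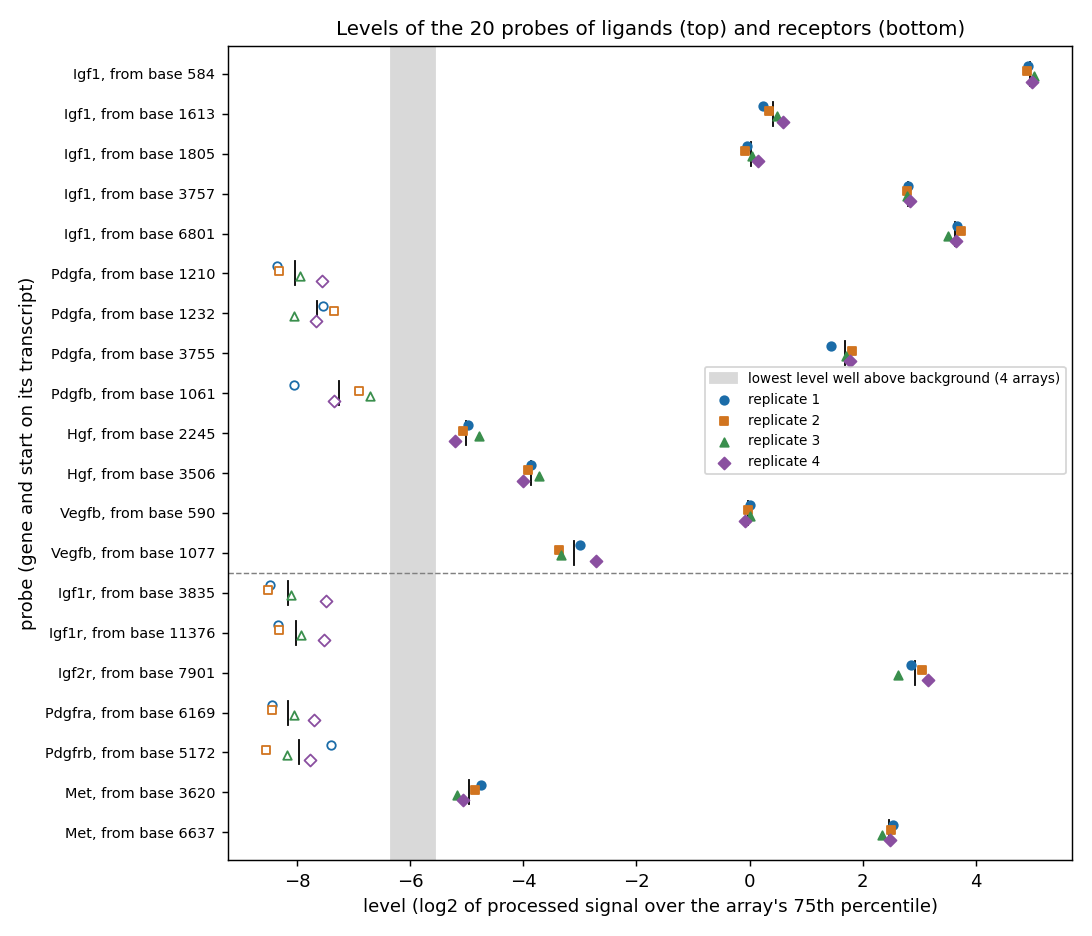
Level of each of the 20 probes (log2 over the array's 75th percentile, horizontal axis) on the 4 replicates, with ligands above the dashed line, receptors below it and the mean as a short vertical line. Filled symbols mark probes detected on all arrays and open symbols those that were not; the grey band spans the lowest level well above background on the 4 arrays, -6.34 to -5.56, and all open symbols lie to its left.

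Igf1, which encodes the main circulating and local ligand of IGF1R, was detected by all 5 of its probes. The probes lie at separate places on rn4 chromosome 7, all listed in forward order. The 10-spot probe, which begins at base 584 of its transcript, covers chr7:24587916-24587975 and lies 17501 bases before the next. Its first 30 bases, as of every probe shown unless other bases are named, are given because this probe was read on the most spots:
Igf1 from base 584: tgaggaggctggagatgtactgtgctccgc
On replicates 1 to 4 it read 39989, 44707, 38539 and 30524 fluorescence units. Relative to the 75th percentile these signals were levels of 4.92, 4.91, 5.03 and 4.99, a mean of 4.96 ± 0.06 (SD, n = 4). After this scaling the highest and lowest replicates differed by 1.09-fold, against 1.89-fold (SD 0.44) with spike-in scaling, and the raw order, with replicate 4 dimmest, was that of the arrays' own brightness.

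The other 4 Igf1 probes lie further downstream. The pair at bases 1613 and 1805 (chr7:24605477-24605536 and chr7:24605669-24605728) is listed for the same 4 curated RefSeq transcripts. At base 1613 the levels were 0.24, 0.34, 0.49 and 0.59, and at base 1805 they were -0.05, -0.08, 0.05 and 0.15. Both were highest on replicate 4, with SDs of 0.16 and 0.10. The probes at bases 3757 and 6801 (chr7:24607739-24607798 and chr7:24610779-24610838) are listed for 4 predicted transcripts and for no curated one. The first read 2.80, 2.79, 2.78 and 2.83, and the second 3.67, 3.74, 3.51 and 3.65. The 5 probes did not share an order of replicates: replicate 3 was highest at base 584 and lowest at base 6801. Their levels are not set against each other, since probes differ in how well they bind.

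Pdgfa, which encodes the A chain of PDGF, a mitogen for fibroblasts and smooth muscle, was detected by 1 of its 3 probes. Probes at bases 1210 and 1232 (chr12:16172299-16172358 and chr12:16172321-16172380, forward order) overlap by 38 of 60 bases and were detected on no array. The remaining probe, at base 3755, lies 813 bases further on (chr12:16173194-16173253) and was detected on all 4. The following stretches are shown because the call for this gene depends on which of them is read, and capitals mark bases that both overlapping probes share within the stretches:
Pdgfa from base 1210, probe bases 11 to 40: agtgtccgtttgTTCAGTGTGACATCAAAG
Pdgfa from base 1232, probe bases 1 to 30: TTCAGTGTGACATCAAAGcaagtactgtag
Pdgfa from base 3755, probe bases 1 to 30: gtgtgtgtgtgtggtttccttgttttggtt
The third stretch opens with a run of GT repeats. At base 1210 the signals were 4.04, 4.66, 4.82 and 5.09 units, all of them surrogate values, which the scanner software fills in for spots not above background. The overlapping probe at base 1232 gave 7.09, 9.2, 4.43 and 4.7 units, of which replicates 1 and 2 were positive and significant against background but not well above it. At base 3755 the signal was 3584, 5226, 3824 and 3285 units, or levels of 1.44, 1.81, 1.70 and 1.78 and a mean of 1.68 ± 0.17 (SD, n = 4). Replicate 1 was the lowest and the other three lay close together. The undetected pair is listed for 1 curated and 2 predicted transcripts, and the detected probe for 3 predicted transcripts alone. Whether its signal came from Pdgfa transcripts or from other sequence was not tested, so the Pdgfa call is that of 1 probe. Among all detected genes with at least 2 probes, 37% also had a probe that was not detected on all arrays, and of the 5 such genes here it was Pdgfa alone.

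Pdgfb encodes the B chain of PDGF, which binds both PDGF receptors, and has a single probe (chr7:118245297-118245356, reverse order). Its signal was 4.97, 12.5, 11.2 and 5.93 units, below the lowest signal well above background on every array. All 4 spots were nevertheless positive and significant against background in the scanner software, with its own spot p-values of 0.00055, 2e-13, 1e-10 and 0.00067. Replicates 2 and 3 were the brighter, and the gene's detection therefore turned on which of these flags was used.

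Hgf, which encodes the ligand of MET and is known mainly from mesenchymal cells, was dim but detected by both probes on every array. Its probe at base 3506 (chr4:14863357-14863416, reverse order) gave 90.9, 99.3, 89.2 and 59.7 units, or levels of -3.86, -3.91, -3.72 and -4.00. The mean was -3.87 ± 0.12 (SD, n = 4). A second, at base 2245 (chr4:14864538-14864597), gave 42.1, 44.6, 42.6 and 25.9 units, or -4.97, -5.06, -4.79 and -5.21, with a mean of -5.01 ± 0.18. On this scale both probes were highest on replicate 3 and lowest on replicate 4. At base 3506 that order was kept with quantile normalization and with the median scale. With normexp background correction replicate 4 was the highest and replicate 2 the lowest, and with spike-in scaling replicate 1 was the highest and replicate 4 still the lowest. The probe at base 3506 is listed for 1 predicted transcript alone, and that at base 2245 for 1 curated transcript. The stretch below is that of the probe at base 3506, whose level was used for the gene:
Hgf from base 3506: ggtcatgactgcaatgctttgtgaatatcc

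Vegfb, which encodes VEGF-B, was detected by both probes on all arrays. Its probe at base 590 spans a gap on the genome (chr1:209659244-209659672, reverse order, 429 bases for a 60-base probe). The signal was 1315, 1461, 1181 and 907 units, or levels of 0.00, -0.03, 0.00 and -0.08. The mean was -0.03 ± 0.04 (SD, n = 4), and replicate 4, the lowest, was within 1.06-fold of the highest. At base 1077 (chr1:209658298-209658357) the other probe gave 166, 144, 117 and 145 units, or levels of -2.99, -3.37, -3.34 and -2.72. Replicates 1 and 4 were the higher pair there, and its SD of 0.31 was the widest of the 13 detected probes of these genes, although limma's variance test did not call it (unadjusted p = 0.096, adjusted p = 0.93). The start of the gap-spanning probe is shown because the 60 bases of the whole probe lie on both sides of that gap, whose place within the probe was not located:
Vegfb from base 590: ggagatgtccctggaagaacacagccaatg

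Igf1r encodes the receptor tyrosine kinase for IGF-1 and was detected by neither of its probes. The probe at base 3835 (chr1:122989150-122989209, forward order), listed for the curated transcript, gave 3.72, 4.07, 4.26 and 5.32 units. The other, at base 11376 (chr1:122996687-122996746), listed for predicted transcripts alone and 7477 bases away, gave 4.1, 4.7, 4.85 and 5.18 units, all of them surrogate values. Neither was well above background on any array, and the probe at base 3835 was positive and significant on 1. The start of each is shown because the absence of a call rests on these sites:
Igf1r from base 3835: tcggaagcatcaaggatgagatggagccca
Igf1r from base 11376: ggccacttgagtctattactctgctttttt

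Igf2r, the cation-independent mannose 6-phosphate receptor, was detected by its single probe, printed on 10 spots (base 7901, chr1:42340766-42340825, forward order). Its first bases are shown because this single probe carries every value of the gene:
Igf2r from base 7901: ttagcattgtaattctctccccctatttat
Its signal was 9532, 12309, 7283 and 8536 units, or levels of 2.86, 3.05, 2.63 and 3.16, with a mean of 2.92 ± 0.23 (SD, n = 4). Replicate 4 was the highest and replicate 3 the lowest, 1.44-fold apart. The standard error of a mean over its 10 spots was 0.025 to 0.039 per array, which covers scatter within an array alone. The median SD of all 1045 such 10-spot probes that were detected was 0.10, and 94.1% had a smaller SD than Igf2r. The 10-spot Igf1 probe stood near the other end, with 19.8% of these probes less variable. In limma's variance test Igf2r had an unadjusted p of 0.027 and an adjusted p of 0.63. With no filter on dim probes the adjusted p in limma was 0.037, which passes the threshold, and over the other alternatives it ran from 0.41 to 1. Without replicate 3 the SD was 0.15. With spike-in scaling replicate 2, not replicate 4, was the highest, and the range was 2.01-fold.

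The PDGF receptors, which mesenchymal cells are known to carry, were each read by a single probe and were not detected. Pdgfra, the alpha receptor, gave 3.77, 4.26, 4.42 and 4.63 units, all surrogate values, on the 2 spots of its probe (chr14:35369708-35369767, reverse order). Pdgfrb, the beta receptor, gave 7.86, 4.01, 4.1 and 4.4 units (chr18:57053387-57053446, forward order). Only replicate 1 of Pdgfrb was positive and significant against background, and none was well above it. Over the 7 undetected probes of these genes, 20 of 28 values were surrogate values, and their signals ran from 3.72 to 12.5 units. On a log scale such filled-in values carry no order between replicates.

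Met, which encodes the HGF receptor, was detected by both probes on all 4 arrays. Its probe at base 6637 (chr4:43213390-43213449, forward order), listed for 1 predicted transcript alone, gave 7621, 8404, 5998 and 5346 units. Its levels of 2.53, 2.50, 2.35 and 2.48 averaged 2.46 ± 0.08 (SD, n = 4), with replicate 3 the lowest. A second probe, at base 3620, listed for the curated transcript, spans 1217 bases of the genome (chr4:43202449-43203665). It gave 49.1, 51.1, 32.7 and 28.7 units, or -4.75, -4.86, -5.17 and -5.06, a mean of -4.96 ± 0.19. Replicates 1 and 2 were the higher on that probe. Its signals were dim, where the lowest signal well above background was 16.7 to 20.3 units. The level used for the gene is that of the probe at base 6637, and whether its signal came from Met transcripts was not tested. The signals of the probes are not comparable as levels, but each is well above background, and the difference between a curated and a predicted target is why both are shown:
Met from base 3620: tgcaagaaactgcatgttggatgaaaaatt
Met from base 6637: cttgagctgaatggtactccgtgtgttaat

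**Figure D2:**
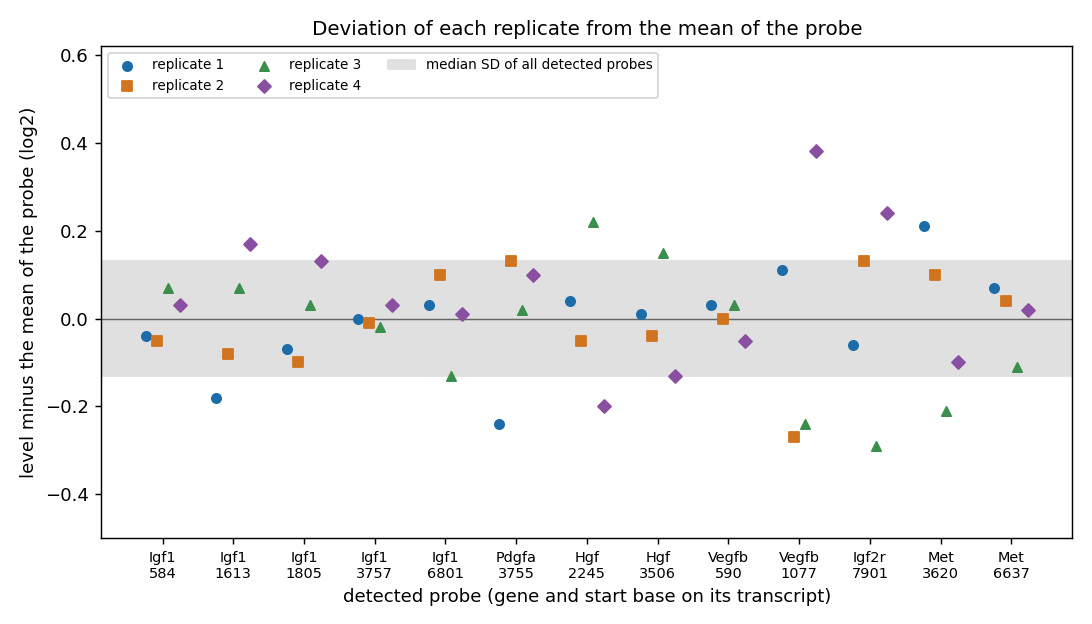
Deviation of each of the 13 detected ligand and receptor probes from its own mean (log2, vertical axis) on replicates 1 to 4. Most points lie close to 0, the grey band is the median SD of all detected probes (0.13) to either side of 0, and the widest excursions are those of Vegfb at base 1077 (SD 0.31) and Igf2r (SD 0.23).

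Differences between replicates were small for most of these probes. The SD over the 4 arrays ran from 0.02 (Igf1 at base 3757) to 0.31 (Vegfb at base 1077) over the 13 detected ligand and receptor probes, with a median of 0.12, against a median of 0.13 over all 19400 detected probes. None of the 13 passed limma's variance test at an adjusted p under 0.05, where 0.17% of all detected probes did. At an unadjusted p under 0.05 there was 1 of the 13, Igf2r, against 1261 probes in all (6.5%). Outside these genes, the fibroblast marker Thy1, detected by 1 of 2 probes, passed limma's variance test on that probe (adjusted p = 0.036). Its levels were -1.55, -1.67, -3.28 and -0.81, an SD of 1.04. The macrophage marker Itgam, with an SD of 0.74, had an adjusted p of 0.065 in that test. These differences are relative to each array's 75th percentile. Spike-in controls stood 1.86, 1.87, 2.46 and 2.85 log2 units above that percentile on replicates 1 to 4, so scaling to them lowers replicates 3 and 4 by up to about 1 log2 unit against replicates 1 and 2. On that scale the range between replicates was 2.02-fold for Pdgfa, 2.20-fold for Hgf, 2.09-fold for Vegfb and 2.06-fold for Met. There Igf1, Pdgfa, Hgf, Vegfb and Met were all lowest on replicate 4 and Igf2r on replicate 3.

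**Figure D3:**
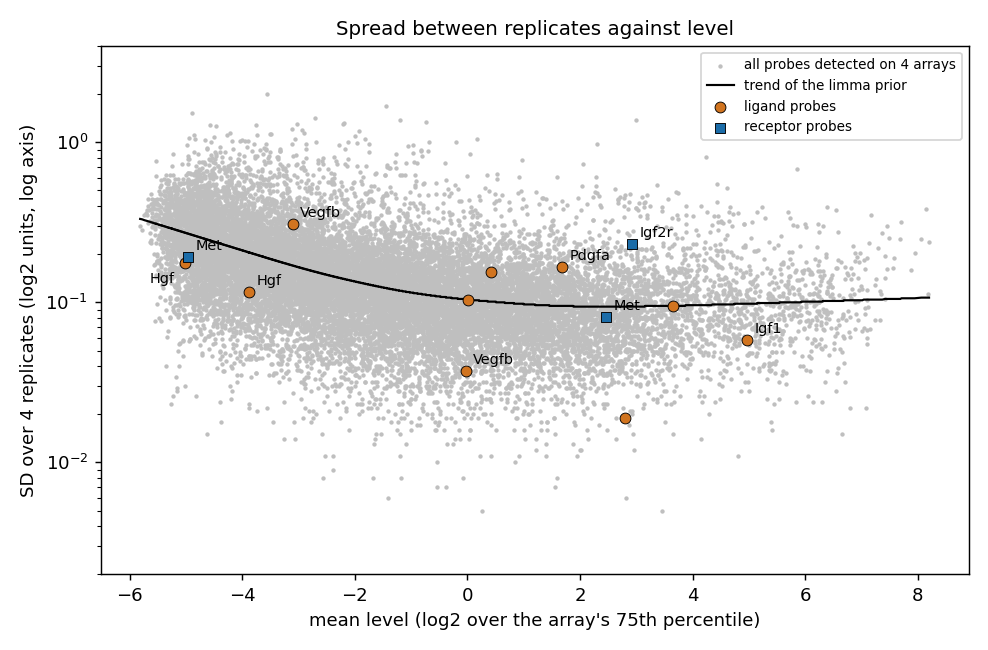
SD over 4 replicates (log2 units, logarithmic vertical axis) against mean level for all 19400 detected probes (grey), with the 13 ligand and receptor probes in colour and the trend of limma's prior as a line. Igf2r, at a mean of 2.92 and an SD of 0.23, lies above the trend, and the Igf1 probe at base 3757, at an SD of 0.02, lies below it.

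Genes that work with these ligands and receptors were read from lists of the IGF, PDGF, HGF and VEGF systems, of mannose 6-phosphate sorting and of shared receptor signalling. Of 93 such genes on the array, 61 were detected on all arrays (65.6%), against 54.9% of all named genes. The IGF, PDGF and VEGF lists lay below the share of all named genes (38.1%, 40.0% and 33.3%), and the HGF list lay close to it (53.8%). Only the sorting and shared signalling lists lay above that share (100.0% and 96.0%). The side on which the HGF list fell depended on the call. It reached 8 of 13 once 2 arrays sufficed, above the 59.3% of all named genes then detected. On the looser scanner flag it reached 10 of 13, above 65.5%. It dropped to 5 of 13, below 47.3%, when all probes of a gene had to pass. In the IGF system 8 of 21 were detected. The serum carrier Igfbp3 lay at -1.11 ± 0.13 and Igfbp1 at -3.75 ± 0.31, while Igfbp2, Igfbp4, Igfbp5, Igfbp6 and Igfbp7 were detected on no array. Igf2, the second IGF ligand, was detected by 1 of 2 probes at -4.63 ± 0.27. Of the receptor substrates, which pass the signal of IGF1R and the insulin receptor on to PI3K, Irs2 was detected at -2.81 ± 0.08 and Irs1 on 1 array only. The insulin receptor Insr was likewise detected on 1 array only, and the insulin-degrading protease Ide on all 4, at 2.21 ± 0.03.

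In the PDGF system 4 of 10 genes were detected, and in the HGF system 7 of 13. The proprotein convertases Furin, which can cleave the PDGF precursors, and Pcsk5 lay at -0.04 ± 0.13 and -0.12 ± 0.22. The other ligands Pdgfc and Pdgfd were detected on no array. Lrp1, an endocytic receptor known to act with PDGFRB, read -1.24, -0.88, -1.34 and -0.42, with replicate 4 the highest and replicate 3 the lowest. Its SD of 0.42 had an unadjusted p of 0.0039 in limma's variance test and an adjusted p of 0.24, the lowest adjusted p among the 61 genes. Of the proteases that activate the HGF precursor, matriptase (St14) was detected at 1.90 ± 0.06 and hepsin (Hpn) was not. Hgfac, the HGF activator, was detected by 1 of 2 probes at -5.42 ± 0.22. The inhibitors of these proteases, Spint1 and Spint2, were detected on no array. Cd44, a co-receptor of MET, was detected by all 3 probes at 2.92 ± 0.19, and Mst1, an HGF-like ligand, at 1.31 ± 0.12, with its receptor Mst1r detected on no array.

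The VEGF system had 3 of 9 genes detected. Vegfa, the best known member, was detected by none of its 3 probes, and Vegfc, Vegfd (on the array as Figf), Pgf and the receptor Kdr on no array. Flt4, the receptor of VEGF-C and VEGF-D, was detected by 1 of 2 probes at -4.99 ± 0.30. Flt1, the receptor of VEGF-B, was detected on 2 arrays, whereas neuropilin 1 (Nrp1) lay at -0.76 ± 0.08 and Nrp2 at 0.67 ± 0.13. All 15 genes of mannose 6-phosphate sorting were detected, including the smaller receptor M6pr at 3.81 ± 0.18 and the enzymes that make the tag, among them Gnptg at 0.82 ± 0.09 and Nagpa at -2.26 ± 0.02. Of 25 shared signalling genes 24 were detected, Src being the exception, with the kinase Akt2 at 0.78 ± 0.03, the adaptor Grb2 at 2.14 ± 0.01 and Mapk3 at 5.05 ± 0.32. Over the 61 detected genes of these lists the median SD was 0.11. None passed limma's variance test. An unadjusted p under 0.05 was found for 4 of the 61 (Lrp1, Plxnb1, Mapk3 and Foxo3), a share of 6.6% against 6.5% of all detected probes.

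**Figure D4:**
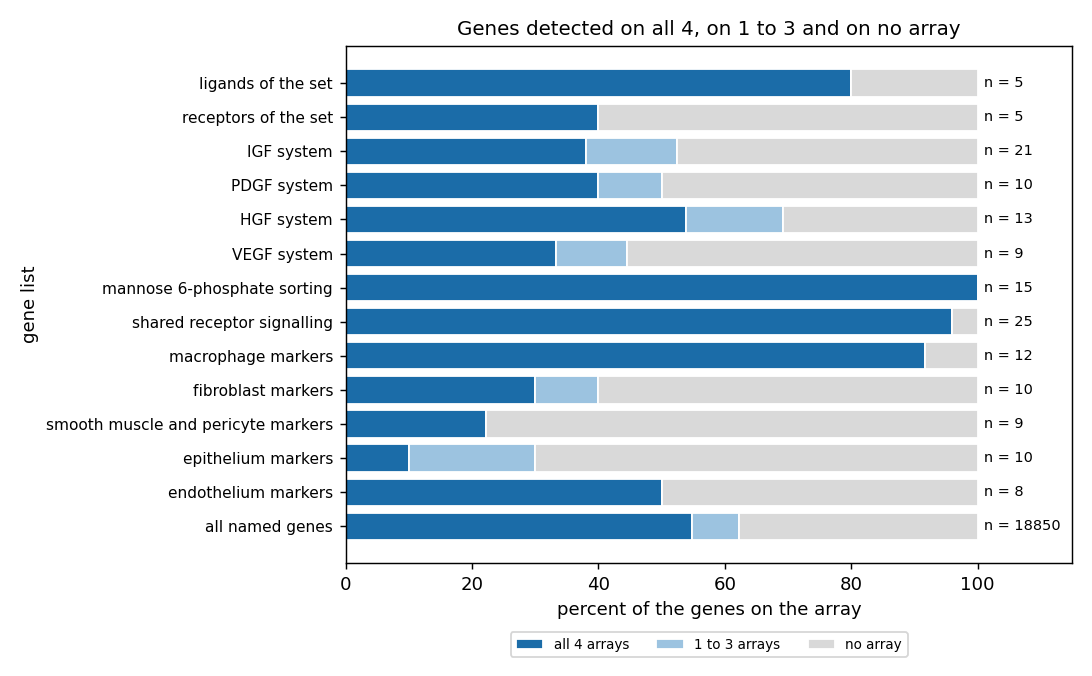
Genes detected on all 4 arrays, on some and on none (share of the genes on the array, in percent, horizontal axis) for ligands and receptors, the pathway lists, the marker lists and all named genes. Mannose 6-phosphate sorting (15 of 15) and shared signalling (24 of 25) stand at or near the full bar, while the IGF, PDGF and VEGF systems hold 8 of 21, 4 of 10 and 3 of 9.

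Promoter composition was set beside detection, from RefSeq sequence of GRCr8 (300 bases around each gene's start), which matched 9 of the 10 genes. The measure is the observed over expected count of the dinucleotide CG, where values of at least 0.6 are usual for CpG islands. It was 0.40 for Igf1, 0.63 for Pdgfa, 0.27 for Hgf, 0.70 for Vegfb, 0.87 for Igf2r and 0.32 for Met among detected genes. It was 0.76 for Pdgfb, 1.11 for Igf1r and 0.33 for Pdgfra among those not detected. Over the named genes with a promoter there, 75.9% of 8268 with a value of at least 0.6 were detected on all arrays and 33.1% of 7106 below it. Igf1, Hgf and Met were thus detected with promoters of the class in which most genes were not, and Igf1r and Pdgfb were not detected although their promoters belong to the other class. With 9 genes this is a description and no test was made.

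**Figure D5:**
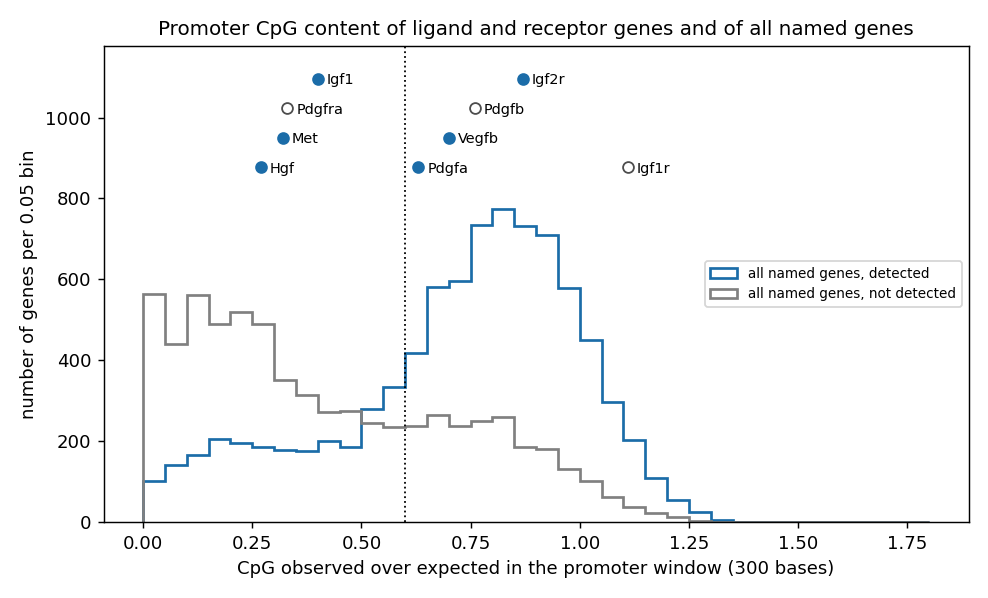
Observed over expected CG dinucleotides in 300-base promoters (horizontal axis) of named genes detected on all arrays and of those that were not, with the 9 matched ligand and receptor genes marked above (filled where detected, open where not). Igf1, Hgf and Met lie below 0.6 although detected, and Igf1r, at 1.11, lies far above it although not detected.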

How the data were processed

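RNA of 4 submerged NR8383 cultures was labelled with Cy3 and hybridised to single-colour Agilent arrays, per the labels' protocols, and the submitters' processing notes name Agilent Feature Extraction 11.0.1.1. The deposited values are fluorescence intensity per spot on a linear scale, background-corrected by the software in the processed signal with no scaling from array to array in the deposited values (per the file headers). The spot p-value against background and the detection and outlier flags were used as the authors deposited them. All arrays lay on 1 slide, so no batch could be tested.

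Control spots and outlier-marked spots (0.685 to 1.05% per array) were left out. Levels are log2 processed signal minus the 75th percentile of the array, averaged over spots of a probe. A gene counts as detected with at least 1 probe detected on all 4 arrays, and its level is that of the brightest such probe. Probes were named through a RefSeq table of GRCr8 by accession (22477), symbol (3718) or older symbol (348), and 19055 were left without a name. Coordinates are the files' own, on rn4, with exon and UTR annotation not used. Pappa2 and Ranbp9 were not matched. Variance was tested in R 4.3.3 with limma 3.58.1, the residual variance of 19400 probes against a robust prior trended on mean signal (F test, Benjamini-Hochberg at 0.05). Such p-values measure only the spread between these samples, and the number of arrays limits the precision. Other steps ran in Python 3.11.15 (pandas 2.3.3, numpy 2.4.6), with figures from matplotlib 3.10.9, and the scripts were tested on simulated data.

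The genes and lists were chosen with earlier results of these data known. All 10 ligand and receptor genes, every gene of the pathway lists and every marker gene were open to be named in the text, by a rule that uses no value. Alternatives were the positive and significant flag, detection on at least 2 arrays, every probe required, marked spots kept, normexp (offset 50), quantile, median and spike-in scaling (8 probes), no filter on dim probes, other priors, a threshold of 0.01, the mean over detected probes, and each replicate left out.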

Additional observations from a re-analysis of the deposited data

Results flagged for a closer look

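The 74 levels examined over the 4 replicates were those of the 13 detected ligand and receptor probes and the 61 detected pathway genes. Marker genes were not among them. Of the 74 levels, 1 had a replicate that stood apart from the others, a share of 1.35% where chance gives about 1 in 20. It was Sos2, an exchange factor that couples GRB2 to RAS, at 0.56, 0.39, 0.56 and 0.54 on replicates 1 to 4. Replicate 2 was the lowest, and its gap to the nearest other replicate was 0.900 of the whole range, above Dixon's critical value for 4 samples. The whole range was only 1.13-fold, and the SD of 0.08 was below the median of 0.13 over all detected probes. The ratio was large because the other replicates nearly coincided. No detected ligand or receptor probe had such a replicate, and the undetected probes were not examined.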

How the results depend on the processing

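The count of 6 detected ligand and receptor genes was 7 with the positive and significant flag, which added Pdgfb (65.5% of all named genes passed), and 5 when every probe was required, which removed Pdgfa (47.3%). It stayed at 6 with at least 2 arrays, with marked spots kept and with each replicate left out (6 to 6). The pathway count of 61 was 71, 65 and 56 with the flag, 2 arrays and every probe, and 61 to 61 without single replicates. Over all named genes the share moved the same way, from 54.9% to 65.5%, 59.3% and 47.3% with those 3 settings. The list counts below are to be read beside these shares. The count of 0 variable ligand or receptor genes was 1 (Igf2r, adjusted p = 0.037 in limma) without a filter on dim probes, where 1121 of 45588 probes were called. It was 0 under every other setting run and 0 to 0 with single replicates left out, and the cause was not tested. Several of those settings could not have called a ligand or receptor gene. With either other prior, the threshold of 0.01 or replicate 3 left out, no probe of any gene was called. With spike-in scaling 1 of 19400 probes was called. Of 58 alternative levels of the detected genes, 39 moved by less than 1 SD and 19 by more, with the median or spike-in scale, normexp or the mean over detected probes. The median and spike-in scales change the reference of every level (Igf1 went from 4.96 to 6.54 and 2.71). The mean over detected probes takes in dimmer probes than the brightest. Moves under these 3 settings were therefore fixed in advance and do not measure how stable the levels were. Of 88 alternative list counts, 83 stayed within 1.5 times. The others were the IGF system at 13, smooth muscle at 6 and epithelium at 5 with the positive and significant flag, epithelium at 2 with 2 arrays, and the VEGF system at 1 with every probe. No paired analysis was possible because all samples belong to 1 group.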

Other observations

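A pair of probes outside the chosen genes lies within the genomic span of their probes and was picked out after the values were seen. FQ136975, a transcribed sequence listed in the opposite order to the Met probes, lies within their span (rn4 chr4:43213038-43213097). It was detected on all 4 arrays at levels of -3.25, -3.51, -3.43 and -3.36. CB585541, likewise listed in the opposite order, lies within the span of the Igf1r probes (rn4 chr1:122996099-122996158). It was detected on no array, like the Igf1r probes on either side of it, and read -8.51, -8.52, -8.13 and -7.76.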
